A study of Mus musculus with 31 samples.

Results

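The immediate early genes are the first genes that neurons transcribe after they have been stimulated. Here 10 of them, Fos, Fosb, Junb, Egr1, Egr2, Egr4, Arc, Npas4, Nr4a1 and Dusp1, were followed library by library in mouse cortex. They were chosen by name, out of the 20436 gene symbols in each count table, and all 10 were found. Cortex of wild-type mice (WT) was compared with cortex of mice lacking Fmr1 (FXS in the labels), mice lacking Rps6kb1, the gene of the S6 kinase S6K1 (S6K1), and mice lacking both genes (DKO), all 29 to 34 days old. The mRNA of each gene was counted in 16 RNA libraries, 4 per genotype. Ribosome footprints, the stretches of mRNA that ribosomes protect from nuclease, were counted in 15 libraries, with 4 WT, 5 FXS, 3 S6K1 and 3 DKO libraries. Libraries carry a batch label: RNA batches 5 to 8 each hold every genotype once, whereas footprint batches 1 to 4 hold different mixtures of genotypes. Strain, sex, the alleles used, the time and manner of death and what the animals experienced beforehand are not given in the sources used here. The labels name the batch of each library but not the animal, and they do not pair a footprint library with an mRNA library. Replicate numbers below follow the order of deposition and only name a library. Where p-values are given, they measure the spread between these libraries, which the labels do not tie to separate animals.

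In a neuron, calcium entry and growth factor signals reach the nucleus through kinases that phosphorylate factors already bound to the DNA, among them CREB at the cAMP response element (CRE) and SRF at the CArG box. No new protein has to be made first, so the mRNAs appear within minutes, and most of them decay quickly. Novelty, sensory input, seizures and the handling of an animal are all known to raise these mRNAs in cortex together. Fos, Fosb and Junb encode subunits of the AP-1 transcription factor. Egr1, Egr2 and Egr4 encode zinc finger transcription factors, Npas4 a transcription factor that is unusually selective for calcium entry into neurons, and Nr4a1 an orphan nuclear receptor. Arc encodes a synaptic protein that promotes the removal of AMPA receptors, and Dusp1 a phosphatase that inactivates MAP kinases. Arc mRNA is moved into dendrites, and it has long been studied as a target of FMRP, the protein that Fmr1 encodes and that represses translation.

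RefSeq promoter windows on build GRCm38.p6 were matched for 8 of the 10 genes, all but Arc and Egr1, with 12 windows of 300 bases in all. The letters TGACG, the core of the CRE, were present on one strand or the other in windows of all 8 genes and in 10 of the 12 windows, against 20.81% of 32851 promoter windows. The complete CRE, TGACGTCA, which contains the core on both strands, was present in Dusp1 alone of the 8, against 1.79% of all windows. A CArG box was found in Egr2 alone, in 4 of its 5 windows, against 1.629%. Of these, the windows that start at 67537619, 67537620 and 67537680 on chromosome 10 overlap over most of their length, so a match in one is largely counted again in the others. The letters TATAA, searched on the strand of the gene only, were present in Fos, Junb, Egr2, Egr4 and Npas4, against 17.54%. These matches describe the letters in the windows and say nothing of what binds there. Each window held 250 bases before the start site and 50 from it on. Sites farther away were not searched, so a motif missing here may lie outside the window. The 250 bases before the start site are shown for 6 genes that span these arrangements, from 1 or more CRE cores with TATAA (Fos, Egr4, Npas4) to 4 cores without it (Nr4a1), the complete CRE (Dusp1) and cores around a CArG box (Egr2). Capitals mark the CRE core or its reverse complement CGTCA, the complete CRE, the CArG box and TATAA. Each is written 5′ to 3′ along the strand of the gene.
Fos, chr12:85473640-85473889 (plus strand): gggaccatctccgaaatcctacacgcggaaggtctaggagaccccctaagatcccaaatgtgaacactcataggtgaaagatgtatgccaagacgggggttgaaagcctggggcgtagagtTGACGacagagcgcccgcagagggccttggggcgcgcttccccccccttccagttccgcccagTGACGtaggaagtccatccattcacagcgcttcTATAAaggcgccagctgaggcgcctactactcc
Egr4, chr6:85513590-85513839 (minus strand): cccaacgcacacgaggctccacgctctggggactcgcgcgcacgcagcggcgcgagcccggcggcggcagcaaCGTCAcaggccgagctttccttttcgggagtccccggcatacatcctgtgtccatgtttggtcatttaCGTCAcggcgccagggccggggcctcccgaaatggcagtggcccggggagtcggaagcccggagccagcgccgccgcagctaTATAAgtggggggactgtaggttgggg
Npas4, chr19:4989972-4990221 (minus strand): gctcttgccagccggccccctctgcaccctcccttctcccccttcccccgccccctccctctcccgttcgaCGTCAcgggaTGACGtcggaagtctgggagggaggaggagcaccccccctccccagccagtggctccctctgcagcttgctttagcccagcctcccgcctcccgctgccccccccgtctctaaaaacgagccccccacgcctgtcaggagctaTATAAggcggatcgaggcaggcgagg
Nr4a1, chr15:101266596-101266845 (plus strand): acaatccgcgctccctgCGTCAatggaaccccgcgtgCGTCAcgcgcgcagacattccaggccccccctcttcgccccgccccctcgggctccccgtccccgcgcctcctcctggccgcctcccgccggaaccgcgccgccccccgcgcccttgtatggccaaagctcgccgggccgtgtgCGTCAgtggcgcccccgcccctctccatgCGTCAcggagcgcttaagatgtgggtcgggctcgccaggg
Dusp1, chr17:26508473-26508722 (minus strand): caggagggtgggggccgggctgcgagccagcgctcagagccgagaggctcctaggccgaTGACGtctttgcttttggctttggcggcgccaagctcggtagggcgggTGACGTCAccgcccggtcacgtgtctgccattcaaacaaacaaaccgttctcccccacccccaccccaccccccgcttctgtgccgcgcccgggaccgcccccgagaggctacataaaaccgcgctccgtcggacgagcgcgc
Egr2, chr10:67537619-67537868 (plus strand): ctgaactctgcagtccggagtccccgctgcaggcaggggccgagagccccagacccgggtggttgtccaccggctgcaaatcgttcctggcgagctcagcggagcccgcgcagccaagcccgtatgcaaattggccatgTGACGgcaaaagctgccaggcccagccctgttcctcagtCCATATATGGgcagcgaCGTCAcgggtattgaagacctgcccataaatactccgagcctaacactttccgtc

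The RNA libraries held 12134624 to 17267368 counts and the footprint libraries 16633416 to 34853751. The targeted genes served as a check of the labels. Fmr1 mRNA lay between 55.6 and 82.6 CPM (the count of a gene relative to the total of its library, with TMM factors, a normalization that lines up the bulk of the genes) in WT and S6K1 libraries and between 10.6 and 22.1 CPM in FXS and DKO libraries. Rps6kb1 footprints lay between 26.1 and 36.3 CPM in WT and FXS libraries and between 7.62 and 12.8 CPM in S6K1 and DKO libraries. Rps6kb1 mRNA overlapped, with 39.5 to 55.5 CPM in WT, 41.0 to 53.9 in FXS, 28.2 to 43.7 in S6K1 and 28.5 to 39.6 in DKO. It therefore does not check the label of every RNA library for the loss of Rps6kb1. Coding lengths were not used here, so CPM values are compared between libraries for 1 gene at a time and never between genes. In bulk tissue, fewer cells making a transcript and less transcript per cell cannot be told apart.

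Within every genotype the mRNA levels of the 10 genes differed widely from library to library, and no gene passed the test between any pair of genotypes. Fos mRNA was 39.1, 91.3, 103 and 74.5 CPM in the WT libraries of batches 5, 6, 7 and 8, and 33.1, 74.6, 40.1 and 54.2 CPM in the FXS libraries of the same batches. In S6K1 it was 50.4, 26.0, 78.8 and 92.6 CPM, and in DKO 40.2, 60.8, 93.5 and 28.3 CPM. Every genotype thus had a low and a high library, and the 4 ranges overlapped. Arc had its low and high libraries in much the same places, with 119, 183, 254 and 169 CPM in WT and 92.3, 190, 122 and 176 CPM in FXS. It stood at 110, 77.1, 170 and 224 CPM in S6K1 and 66.6, 156, 270 and 74.0 CPM in DKO. The lowest and the highest Arc libraries of all 16 were both DKO libraries.

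**Figure D1:**
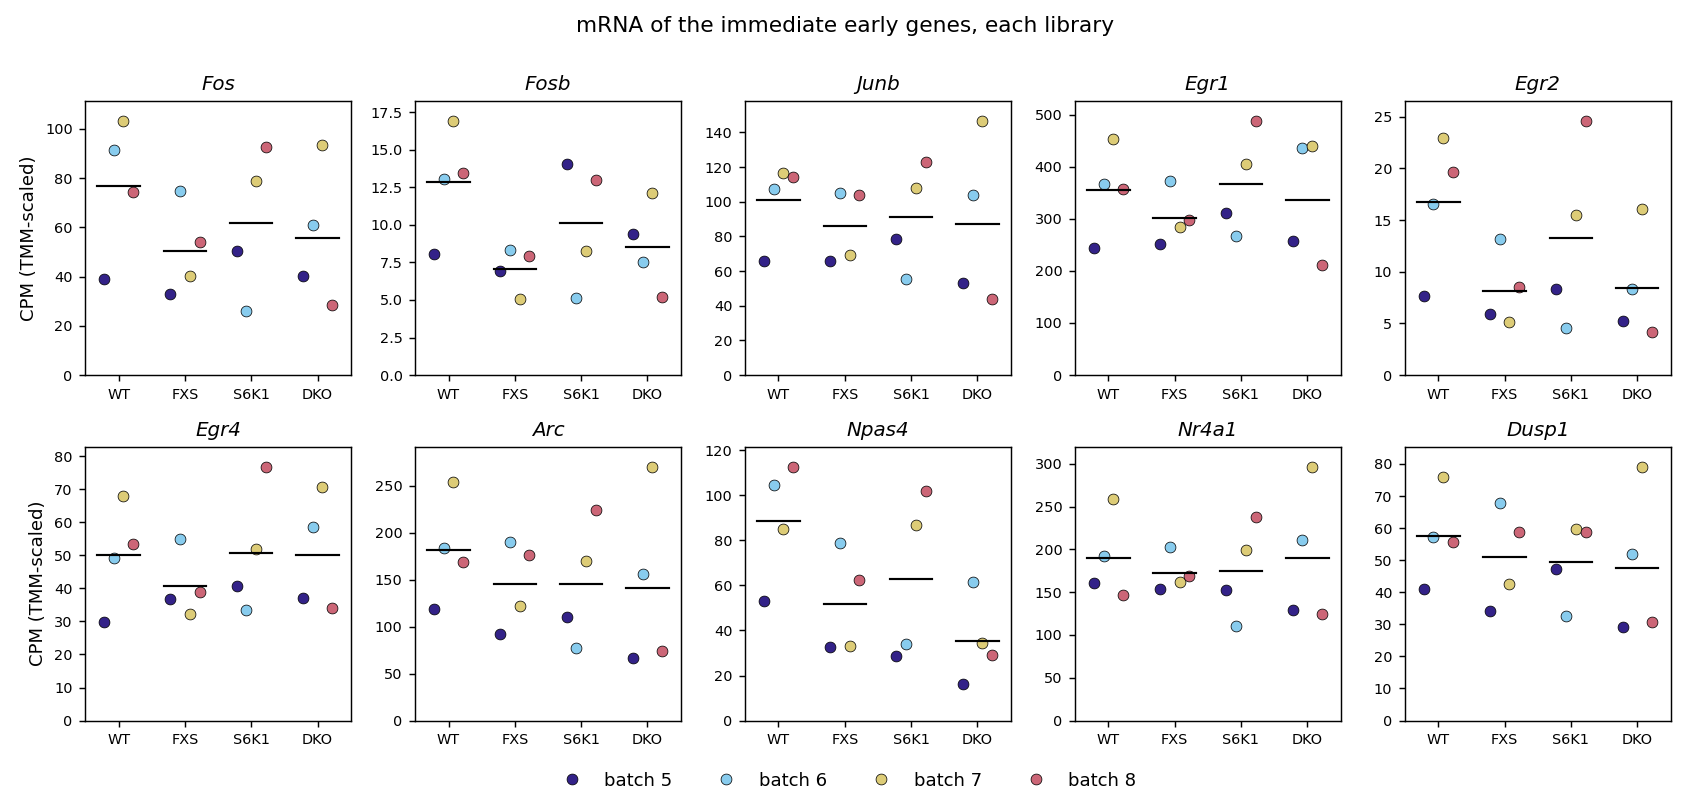
mRNA of each of the 10 genes in each of the 16 RNA libraries, in TMM-scaled CPM on a linear axis from 0, by genotype; colours give the batch and bars the mean of each genotype. The genotypes overlap for every gene, and Npas4 runs from 16.2 CPM in a DKO library to 113 CPM in a WT library.

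Npas4 came nearest to a difference between genotypes. Its mRNA was 53.3, 104, 84.9 and 113 CPM in WT (88.8 ± 26.4, SD, n = 4) and 16.2, 61.7, 34.3 and 28.9 CPM in DKO (35.3 ± 19.2, SD, n = 4), in batches 5 to 8. The DKO library was the lower of the pair in each of the 4 batches, and the ranges met because the WT library of batch 5 lay under the DKO library of batch 6. FXS libraries held 32.8, 78.8, 33.3 and 62.4 CPM (51.8 ± 22.7, SD, n = 4) and S6K1 libraries 28.6, 34.0, 86.8 and 102 CPM (62.8 ± 37.0, SD, n = 4). Both groups overlapped with WT and with DKO. The log2 fold change of DKO against WT was -1.38 ± 0.40 (SE; 95% interval -2.27 to -0.49), with an adjusted p of 0.0804 (unadjusted, 0.00667) in edgeR's quasi-likelihood test, which misses the threshold of 0.05. With the same terms DESeq2 gave -1.39 with an adjusted p of 0.00862 and limma voom gave -1.44 with 0.0159. The authors' deposited table lists -1.39 with an adjusted p of 0.00843. Over 23 alternatives the log2 fold change stayed between -1.70 and -1.16 while the adjusted p ran from 0.00862 to 0.316, and 4 of them passed, so the call depends on the choice of test and libraries. It passed without the S6K1 library of batch 6, with an adjusted p of 0.0281. In the DKO library of batch 7 the other 9 genes were above their mean over all libraries while Npas4 was below its own.

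Over the 10 genes, the mRNA estimates against WT were mostly negative. In FXS all 10 were below 0, with a median log2 fold change of -0.27 beside -0.01 over all 14215 genes tested. They ran from -0.95 ± 0.54 (SE) for Egr2, -0.86 ± 0.37 for Fosb and -0.79 ± 0.38 for Npas4 to -0.10 ± 0.28 for Nr4a1. Over 23 alternatives 7 to 10 were negative, with medians from -0.46 to -0.06, and it was 7 without FXS replicate 3. None passed at an adjusted p under 0.05, against 0.155% of all genes. Only Fosb had an unadjusted p under 0.05 (0.0421), against 12.7% of all genes. Fosb mRNA was 8.08, 13.1, 16.9 and 13.5 CPM in WT and 6.93, 8.37, 5.05 and 7.92 CPM in FXS, and the lowest WT library lay just below the highest FXS library. Its adjusted p of 0.372 became 0.0392 when WT and FXS libraries were fitted alone, at -0.84, and ran from 0.0392 to 0.998 over 23 alternatives. Within batches, Fos, Fosb, Egr2 and Npas4 were lower in FXS than in WT in all 4, which 12.1% of all genes also were. The 10 genes were measured in the same libraries, in which their levels went together (as given below), so the 10 signs are not 10 separate observations.

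In DKO, 9 of the 10 mRNA estimates against WT were negative, with a median of -0.37 beside 0.00 over all genes, and Egr4 stood at 0.01 ± 0.32. Over 23 alternatives 6 to 10 were negative, with medians from -0.64 to -0.13, and it was 6 without DKO replicate 4. None passed, against 5.23% of all genes, and Npas4 alone had an unadjusted p under 0.05, against 22.3%. Egr2, at -0.98 ± 0.53, and Npas4 were lower in DKO in all 4 batches, against 12.9% of all genes. In S6K1, 8 of the 10 were negative, with a median of -0.21 beside 0.00, from -0.52 ± 0.38 for Npas4 to 0.08 ± 0.25 for Egr1. This direction rested on single libraries: without S6K1 replicate 2 there were 2 negative estimates with a median of 0.09, and over 23 alternatives 2 to 10. None passed or had an unadjusted p under 0.05, against 0.0211% and 7.37% of all genes, and none was lower in all 4 batches, against 6.73%. These 3 comparisons share the 4 WT libraries. In the WT libraries of batches 6 and 7 all 10 genes were above their mean over all libraries, and in that of batch 8 it was 9. DKO against FXS had 5 negative and 5 positive estimates, with 1 to 7 negative over the alternatives, and none called or under an unadjusted p of 0.05 (0.0281% and 9.81% of all genes). DKO against S6K1, with 9 negative estimates but 2 without DKO replicate 4, had none either (0.387% and 14.8%), nor did the interaction, which asks whether the loss of Fmr1 acts differently with and without Rps6kb1 (0% and 3.5%). A test over all genotypes together called none of the 10, against 2.31% of all genes, with Npas4 the smallest at an adjusted p of 0.236.

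The spread sets what these comparisons could show. After batch and genotype were taken out, the residual SD of log2 mRNA ran from 0.37 for Egr1 to 0.81 for Egr2, against a median of 0.15 over all genes tested. Of the 10 genes, 8 were among the most variable 10% of all genes, and all 10 were when only the 10161 genes at least as abundant as the least abundant of them were ranked. For Egr1, the least variable, the 95% interval of FXS against WT reached from -0.78 to 0.36. For Egr2 the same interval reached from -2.16 to 0.26. The missing calls therefore do not show equal levels.

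The spread was shared among the 10 genes. Across the 16 RNA libraries, after batch means were subtracted, the 45 pairs of genes had a median Pearson r of 0.83 and a median Spearman rho of 0.76, and 44 of the 45 pairs had an r over 0.5. The highest was Arc with Dusp1 at 0.97 and the lowest Egr4 with Npas4 at 0.48. Among pairs drawn from all genes tested, the median was 0.00 and 7.33% had an r over 0.5. Without subtracting batch means the median was 0.85. For the batch-centred values it was 0.77 after leaving out the pair of libraries farthest from the median of the first gene of each pair. The first gene is the one named earlier in the list of 10, so libraries extreme for the other gene alone stayed in. The points of such a correlation share their library, its depth and its scaling, so these are descriptions of the 16 libraries. Against the mean of the other 9 genes, Npas4 had the lowest r, 0.70, while the median of the 10 was 0.91.

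**Figure D2:**
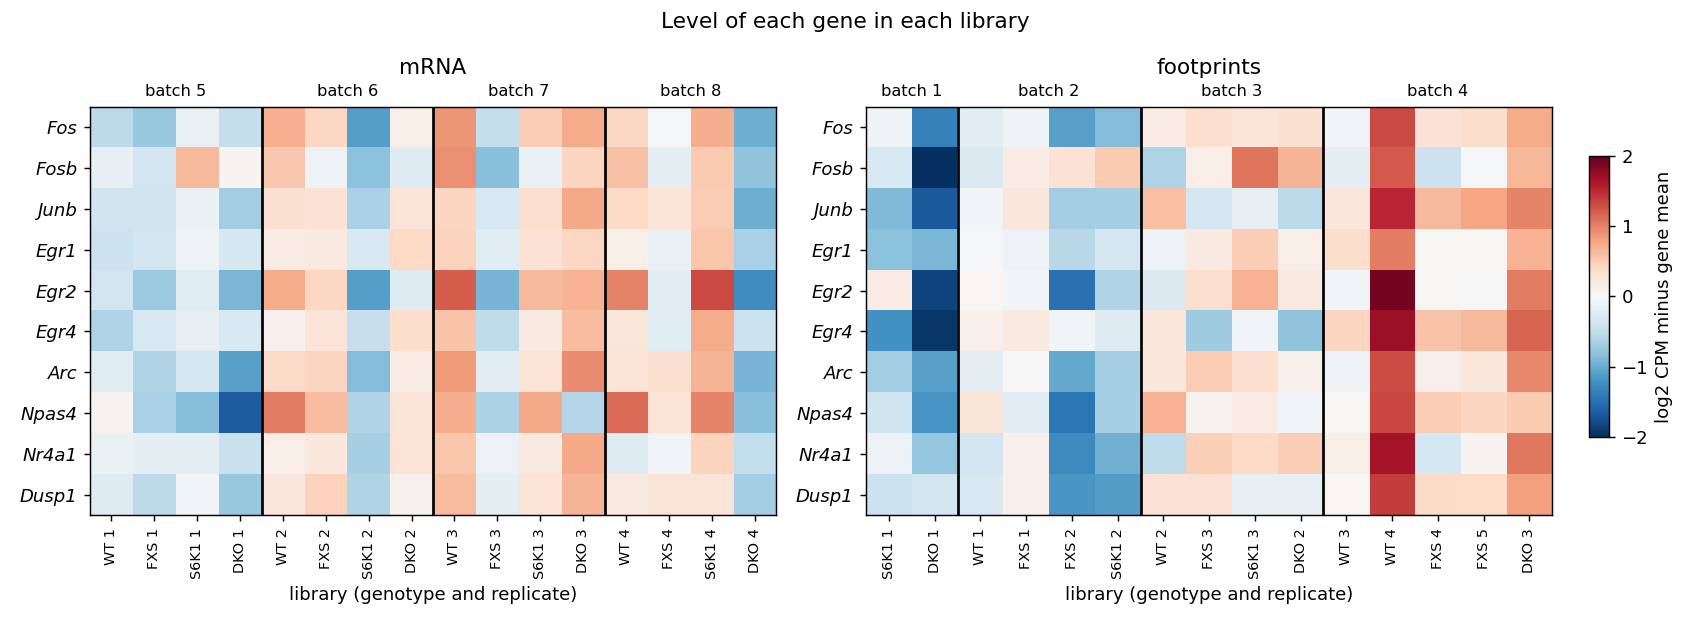
Level of each gene in each library as the log2 CPM minus its mean over the libraries of that assay, mRNA left and footprints right, ordered by batch; red is above the mean, blue below, and the colour scale ends at 2 in either direction. Whole columns share a colour, most of all the footprint library WT 4, the highest of 15 for all 10 genes.

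A few libraries held most of the extremes. Among the RNA libraries, WT replicate 3 of batch 7 was among the 3 highest for 9 of the 10 genes, S6K1 replicate 4 of batch 8 for 8, and DKO replicate 3 of batch 7 for 7. At the other end, DKO replicate 4 of batch 8 was among the 3 lowest for 9 genes, S6K1 replicate 2 of batch 6 for 8, and DKO replicate 1 of batch 5 for 5. DKO and S6K1 each had libraries at both ends. Of the WT libraries only replicate 1 was among the 3 lowest, for 2 genes. Of the FXS libraries only replicate 2 was among the 3 highest, for 1 gene. The part of genotype in these places was not tested. The ratio of the highest to the lowest library ran from 2.31 for Egr1 to 6.94 for Npas4. Batch means differed as well, by 1.24-fold for Fosb to 2.34-fold for Npas4 between the highest and the lowest batch, with batch 5 the lowest for 9 of the 10 genes. No gene passed the test between RNA batches at an adjusted p under 0.05 (0 at an unadjusted p under 0.05 as well, in edgeR, the only tool run for it), although 40.5% of all genes did. Npas4 was the nearest, with an adjusted p of 0.105. The summed mRNA of 7 microglia markers was 99.7 to 138 CPM in batch 5 and 324 to 416 CPM in the other batches, and that of 7 endothelium markers 27.8 to 46.4 against 73.1 to 174 CPM. Sums in batch 5 were also lower for 7 astrocyte markers (1015 to 1182 against 1714 to 2148 CPM), 7 oligodendrocyte markers (1674 to 1797 against 2167 to 3104 CPM) and 10 neuron markers (5342 to 5880 against 6271 to 7412 CPM). Striatum markers summed to 436 to 518 CPM in batch 5 and 283 to 445 CPM in the others. The part of these differences in the lower values of batch 5 was not tested.

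Footprints differed between libraries as well. Fos footprints were 130, 168, 146 and 381 CPM in WT, 144, 71.8, 191, 185 and 194 CPM in FXS, 144, 82.9 and 183 CPM in S6K1 and 59.4, 187 and 255 CPM in DKO. WT replicate 4 of batch 4 stood far above the other 3 WT libraries, and DKO replicate 1 of batch 1 was the lowest of all. Egr1 footprints were 713, 681, 934 and 1492 CPM in WT, 680, 502, 829.5, 745 and 751 CPM in FXS, 416, 578 and 1032 CPM in S6K1 and 389, 805 and 1194 CPM in DKO, with the same libraries at the top and the bottom. Fosb footprints were 16.5, 13.1, 17.6 and 47.2 CPM in WT, 22.3, 24.6, 22, 14.9 and 19.8 CPM in FXS, 16.1, 28.8 and 42.4 CPM in S6K1 and 2.76, 32.2 and 31.9 CPM in DKO. The low DKO library rested on 69 counts of Fosb, the other 14 on 326 to 1103. From the lowest to the highest library, footprints differed 3.84-fold for Egr1 and 17.1-fold for Fosb, the ends of the range over the 10 genes.

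**Figure D3:**
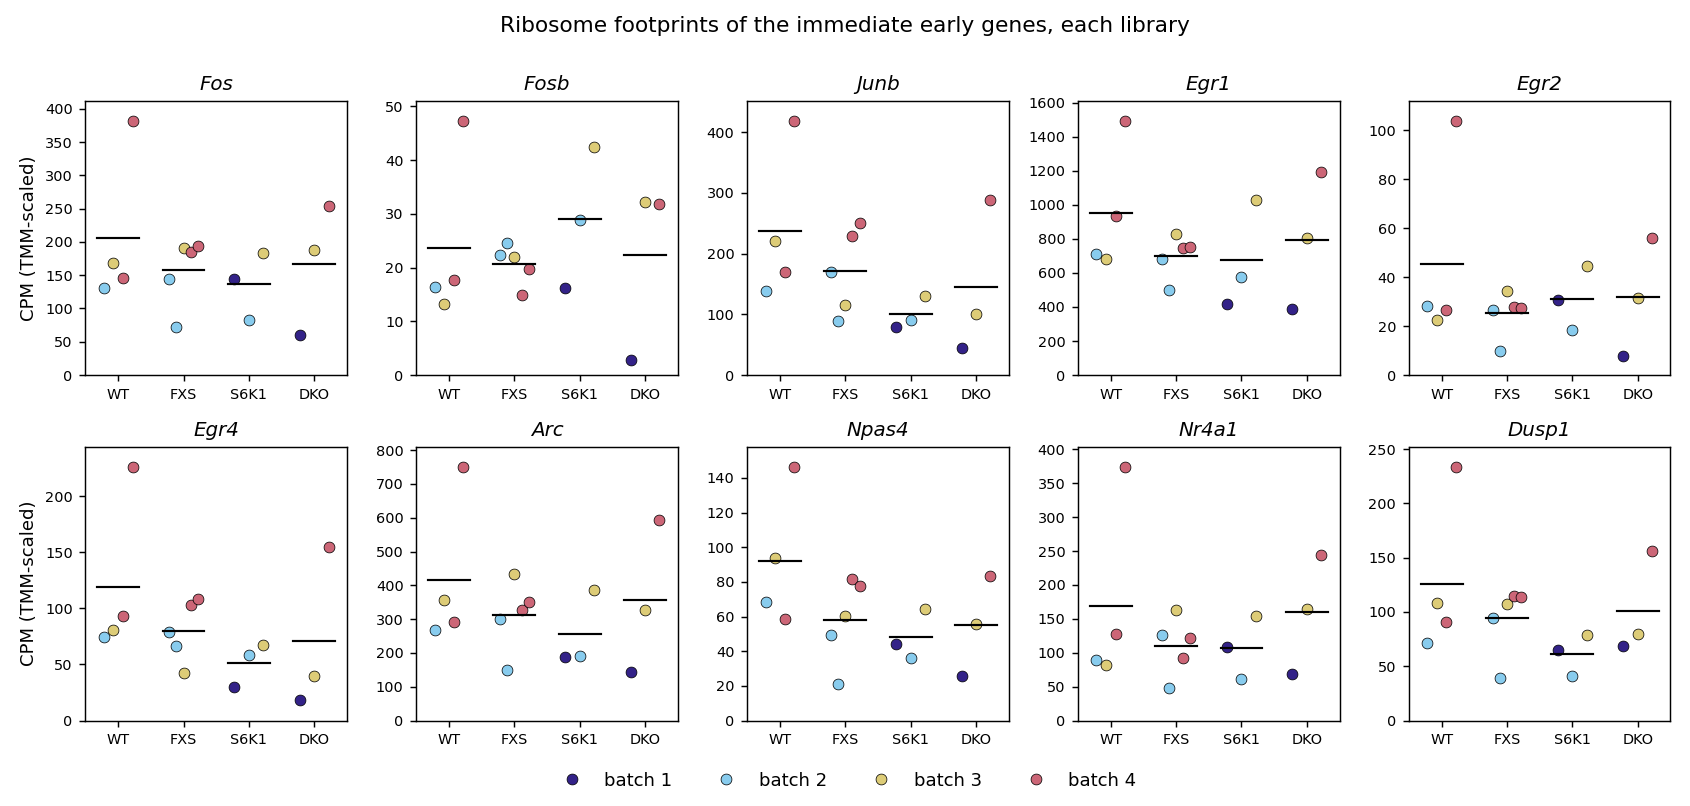
Ribosome footprints of each of the 10 genes in each of the 15 footprint libraries, in TMM-scaled CPM on a linear axis from 0, by genotype; colours give the batch and bars the mean of each genotype. One WT library of batch 4 is the highest point of every panel, and batch 1 gives low points in most panels.

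WT replicate 4 was the highest footprint library for all 10 genes, by a median of 1.37 log2 units over each gene's mean. DKO replicate 3, also of batch 4, was among the 3 highest for 9. DKO replicate 1 was the lowest for 7 genes and FXS replicate 2 of batch 2 for the other 3. The lowest and one of the highest libraries were thus both of DKO, and batch 4 also held WT replicate 3, in which the median gene was 0.03 log2 units over its mean. WT replicate 4 held 20836853 counts, DKO replicate 1 held 26122081 and WT replicate 3 held 34853751, and the part of depth was not tested.

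Between footprint batches, the highest batch mean was 2.28-fold (Fos) to 5.70-fold (Egr4) the lowest, against a median of 1.47-fold over all 13953 genes tested. Batch 4 was the highest for 9 genes, all but Fosb, and batch 1 the lowest for 8, all but Nr4a1 and Dusp1. The test between batches called 3 of the 10, Egr4 (adjusted p = 0.00489), Egr1 (0.00630) and Junb (0.0234), against 53.9% of all genes. Without batch 1, with its 2 libraries, it called Egr4 alone, with an adjusted p of 0.0333. Leaving out single libraries gave 2 to 7 calls, with 7 without WT replicate 3, 6 without FXS replicate 1 and 5 without WT replicate 4 or S6K1 replicate 1. Genotypes were not evenly spread over these batches, since batch 1 held only S6K1 and DKO libraries and batch 4 no S6K1 library. Marker sums also differed by batch. Striatum markers (7 of 7 found) summed to 398 to 620 CPM in batch 2 and 106 to 371 CPM in the others. Endothelium markers summed to 5.11 to 7.23 CPM in batch 4 and 8.39 to 17.5 CPM in the others. Of these 7 endothelium markers, 4 had mean footprint levels under 1 CPM, so their sum rests on few counts. The part of both marker lists in the batch differences was not tested.

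In footprints no gene passed between genotypes. All 10 estimates of FXS against WT were negative, with a median of -0.32 beside 0.00 over all genes, from -0.60 ± 0.31 (SE) for Npas4 to -0.07 ± 0.47 for Fosb. None was called or had an unadjusted p under 0.05, against 0.165% and 9.87% of all genes. Without WT replicate 4 the count of negative estimates dropped to 5 of 10 and the median to -0.02, so the common direction rested on that library. DKO against WT had 8 negative estimates with a median of -0.29, led by Npas4 at -0.70 ± 0.38, and none was called or under an unadjusted p of 0.05 (0.366% and 17.1% of all genes). Without WT replicate 4 it had 3 negative estimates and a median of 0.12. S6K1 against WT had 7 negative estimates with a median of -0.10, and 3 with a median of 0.13 without that library, again with none called or under an unadjusted p of 0.05 (0.00717% and 8.74%). DKO against FXS, DKO against S6K1 and the interaction had no call (0.0143%, 0.00717% and 0% of all genes) and none under an unadjusted p of 0.05 (6.19%, 8.67% and 3.07%).

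In S6K1 footprints, 2 of the 10 genes did not overlap with WT, a share to be read against 9.91% of all genes. Junb footprints were 78.8, 91.2 and 130 CPM in S6K1 and 139, 221, 170 and 418 CPM in WT, without overlap. Egr4 footprints were 30.1, 58.1 and 66.9 CPM in S6K1 and 74.6, 81.0, 93.2 and 226 CPM in WT, also without overlap. The 9.91% counts genes whose S6K1 and WT libraries do not overlap in either direction. With batch in the fit the differences were -0.40 ± 0.42 (SE) for Junb and -0.16 ± 0.37 for Egr4, with adjusted p-values of 0.859 and 0.949. Fosb had the largest positive estimate, 1.12 ± 0.61 with an adjusted p of 0.661. No gene of the 10 was without overlap in mRNA of FXS, S6K1 or DKO against WT (3.34%, 1.6% and 6.15% of all genes) or of DKO against FXS or S6K1 (2.78% and 3.03%). The same held for footprints of FXS and DKO against WT (1.74% and 16.3%) and of DKO against FXS and S6K1 (3.73% and 8.45%).

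Among themselves the footprints of the 10 genes were correlated less evenly than the mRNAs. Across the 15 libraries, after batch means were subtracted, the median Pearson r over the 45 pairs was 0.71 and the median Spearman rho 0.65, with 37 pairs over 0.5, against 9.67% of pairs drawn from all genes. Fos with Egr2 was the highest at 0.94 and Fosb with Dusp1 the lowest at 0.08. Leaving out the pair of libraries farthest from the median of the first gene, as for mRNA, gave 0.66. Against the mean of the other genes Fosb had the lowest r, 0.51. The residual SD of log2 footprints ran from 0.32 for Egr1 to 0.83 for Egr2 against a median of 0.16, and 9 of the 10 genes were among the most variable 10% of all genes. Egr1 was the least and Egr2 the most variable of the 10 in both assays.

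**Figure D4:**
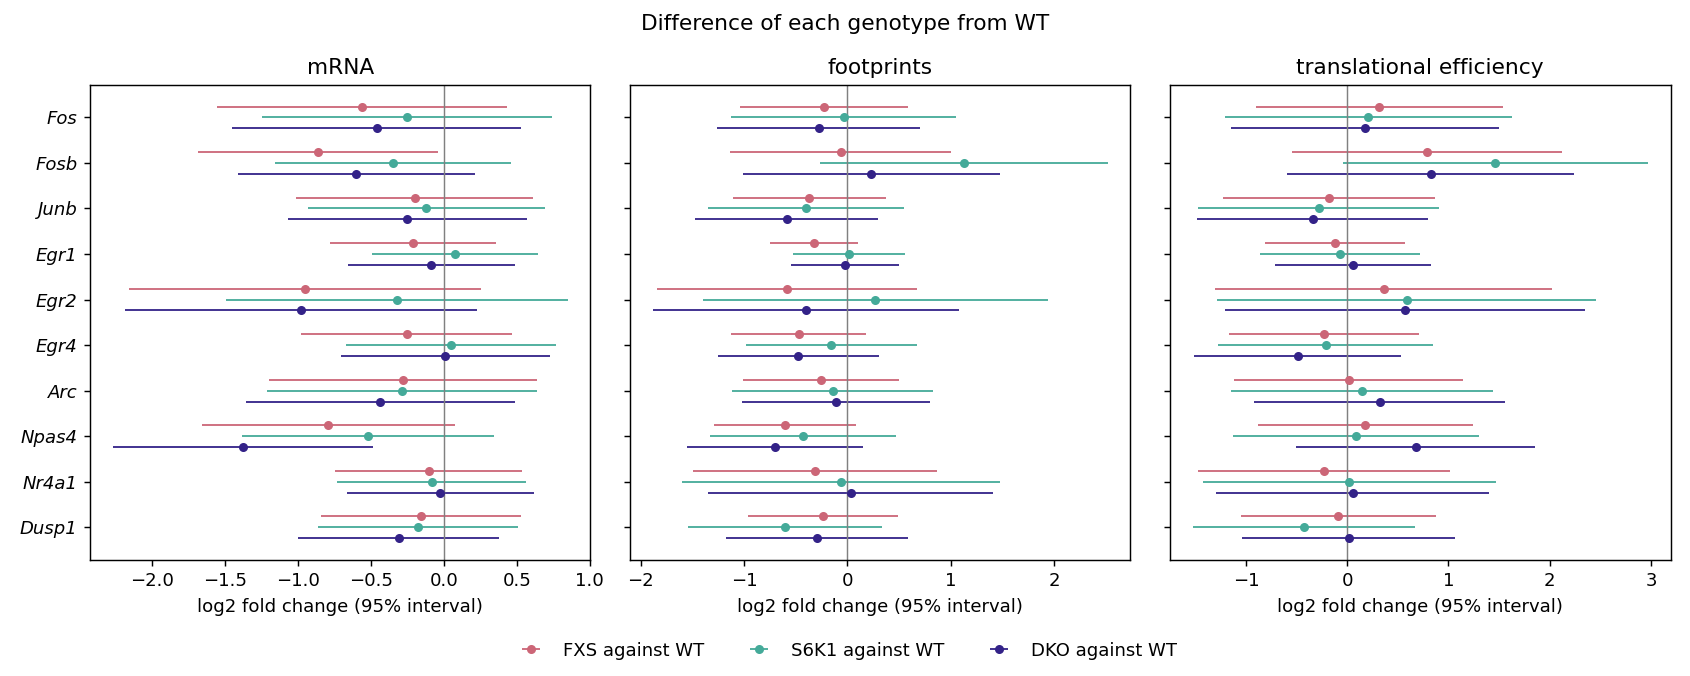
Log2 fold change of each genotype against WT with its 95% interval, for mRNA, footprints and translational efficiency of each of the 10 genes; the vertical line marks 0. The intervals that do not cross 0 are those of mRNA of Npas4 in DKO (-2.27 to -0.49) and Fosb in FXS (-1.69 to -0.04).

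Translational efficiency, the footprint level of a gene divided by its mRNA level, is free of gene length and can be compared between genes. On this scale 8 of the 10 genes stood high among all genes in WT. In WT the ratio of footprint CPM to mRNA CPM, from means on the log2 scale, was 2.61 for Egr1, 2.58 for Fos, 2.35 for Egr2, 2.20 for Egr4, 2.19 for Junb, 2.17 for Arc and 2.01 for Dusp1, against a median of 0.784 over 13654 genes. These 7 lay between the percentiles 90.2 and 94.98 of all genes. Their log2 ratios of 1.01 to 1.38 had standard errors of 0.32 to 0.62, so neighbours in this order did not differ beyond their error. Fosb followed at 1.65, at percentile 84.6. Npas4, at 1.01 (log2 0.01 ± 0.38, SE), and Nr4a1, at 0.742 (log2 -0.43 ± 0.53), were at the percentiles 63.0 and 47.0. Each WT ratio includes WT replicate 4, the highest footprint library for all 10 genes. Its footprints over the mean WT mRNA gave 6.67 for Egr2, against 1.82, 1.45 and 1.72 for the other WT libraries. For Egr1 it gave 4.29 against 2.05, 1.96 and 2.69. Nr4a1 had the lowest ratio of the 10 in every genotype, with 0.600 in FXS, 0.596 in S6K1 and 0.788 in DKO. Fos and Egr2 lay between the percentiles 93.4 and 97.4 in every genotype. The percentiles of other genes differed between genotypes: Egr4 was at percentile 63.6 in S6K1 and 62.6 in DKO, and Junb at 68.3 and 77.5. Dusp1 was at 73.2 in S6K1 and Npas4 at 81.1 in DKO. The libraries behind each ratio came from different batches in the 2 assays, so a batch difference in either assay is part of it. These ratios were not adjusted for batch, and only S6K1 and DKO had footprint libraries in batch 1. With batch in the fit, the log2 difference of Egr4 from WT was -0.21 ± 0.50 (SE) in S6K1 and -0.49 ± 0.48 in DKO. For Junb it was -0.28 ± 0.56 and -0.34 ± 0.54.

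Divided by the mean mRNA of its genotype (taken on the log2 scale), each footprint library gave its own ratio. For Nr4a1 the 15 ratios ran from 0.284 to 2.02 with a median of 0.691. For Egr2 they ran from 1.04 to 7.56 with a median of 3.44, and for Fosb from 0.340 to 4.49 with a median of 3.05. WT replicate 4 or DKO replicate 3, both of batch 4, gave the highest ratio for 9 of the 10 genes. The lowest came from DKO replicate 1 for 5 genes and from FXS replicate 2 for 4.

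**Figure D5:**
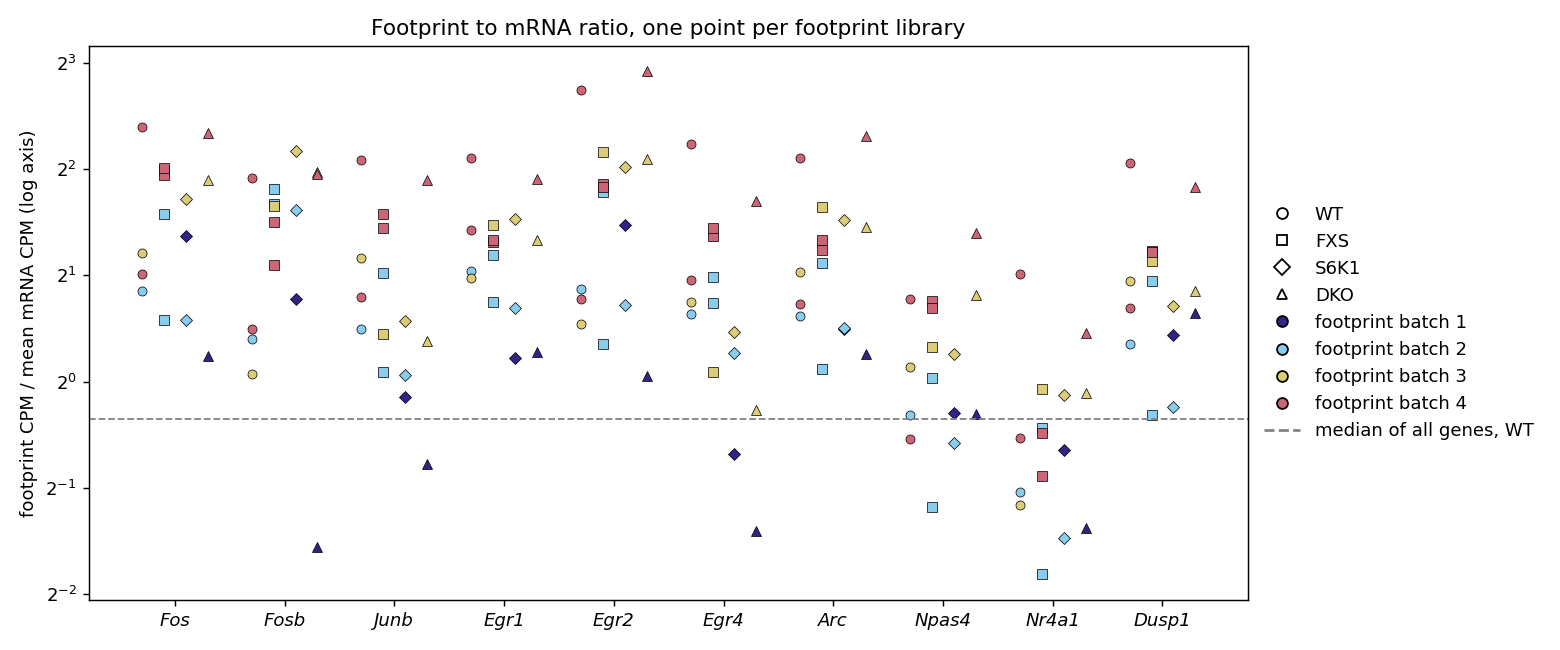
Footprint CPM of each footprint library divided by the mean mRNA CPM of its genotype (mean of log2 values), on a log axis, by gene; shapes give the genotype, colours the footprint batch and the dashed line the median ratio of all genes in WT, 0.784. The points of Nr4a1 run from 0.284 to 2.02 and those of Egr2 from 1.04 to 7.56.

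No difference between genotypes in the translational efficiency of the 10 genes passed the test. FXS against WT had 5 negative and 5 positive estimates with a median of -0.04, from -0.23 ± 0.45 (SE) for Egr4 to 0.79 ± 0.63 for Fosb, and none was called or under an unadjusted p of 0.05 (0.0952% and 13.4% of all genes). For Arc the estimate was 0.02 ± 0.54, with a 95% interval of -1.12 to 1.15. S6K1 against WT had 4 negative and 6 positive estimates and none called or under an unadjusted p of 0.05 (0.0293% and 7.51%). Fosb led at 1.46 ± 0.71 with an adjusted p of 0.679 and 0.452 to 0.947 over 41 alternatives. DKO against WT had 2 negative and 8 positive estimates with a median of 0.12, but 7 negative ones without DKO footprint replicate 3, and none called or under an unadjusted p of 0.05, against 4.85% and 24.9% of all genes. Fosb was at 0.82 ± 0.67, Npas4 at 0.68 ± 0.56 and Egr4 at -0.49 ± 0.48. DKO against FXS, DKO against S6K1 and the interaction had none called (0.0146%, 0.00732% and 0% of all genes) and none under an unadjusted p of 0.05 (8.36%, 14.6% and 4.14%).

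In all, edgeR called 0 of the 10 genes in each of 18 tests, 6 comparisons in each of mRNA, footprints and translational efficiency. At an unadjusted p under 0.05 there was 1 gene in each of 2 tests (Fosb and Npas4, above) and 0 in the other 16. DESeq2 and limma voom called Npas4 mRNA in DKO against WT and none in the other 17. The authors' deposited tables, which cover FXS and DKO against WT, call the same gene in the same comparison and none of the 10 in the other 5, where the smallest adjusted p is 0.259. They give no adjusted p for Fosb and Egr2 in mRNA of FXS against WT, so neither could be called there. The authors' unadjusted p was 0.0266 for Fosb, the smallest of the 10 in that comparison, and 0.0883 for Egr2.

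The wider network gave few calls, to be read against the 5.23% of all genes called in mRNA and the 4.85% called in translational efficiency of DKO against WT. Of 40 other immediate early genes, among them Homer1, Gadd45g, Sik1 and Arl4d, 38 were tested in mRNA and in footprints and 36 in translational efficiency, and 0 were called in any of the 18 tests in edgeR, the only tool counted for these lists. At an unadjusted p under 0.05 there were 1 to 6 in the 9 tests against WT, beside 7.37% to 24.9% of all genes. In mRNA of FXS against WT, 30 of the 38 estimates were negative, with a median of -0.11 beside -0.01 over all genes. There 4 of the 38 had an unadjusted p under 0.05, beside 12.7% of all genes. The same list had 21 negative estimates in DKO and 17 in S6K1, with medians of -0.04 and 0.01. Of 26 delayed activity genes, those that follow the first wave, 1 was higher in DKO mRNA against WT: Cort, which encodes the neuropeptide cortistatin, at 0.91 ± 0.16 with an adjusted p of 0.00444. Its translational efficiency was lower, at -1.31 ± 0.32 with 0.0271. Translational efficiency is the footprint contrast minus the mRNA contrast, so both enter it, and for Cort its drop was larger than the mRNA rise. In footprints no gene of this list was called, which does not show unchanged footprints. The parts of mRNA and footprints in this drop were not tested. Among 18 transcription factors and coactivators that act on these promoters, Mef2d (0.41 ± 0.08, adjusted p = 0.00688) and Mef2c (0.35 ± 0.07, 0.0108) were higher in DKO mRNA. Mef2c (-0.51 ± 0.12, 0.0254) and the CREB coactivator Crtc1 (-0.51 ± 0.13, 0.0332) were lower in translational efficiency, again with no footprint call in the list. Of 19 upstream kinases, 2 were higher in DKO mRNA, Camkk2 (0.27 ± 0.06, 0.0167) and Camk2b (0.25 ± 0.06, 0.0270), both of calcium signalling. Of 18 genes of the glucocorticoid and stress response, 0 were called in any of the 18 tests. At an unadjusted p under 0.05 there were 0 to 5, beside 3.07% to 24.9% of all genes.

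Some cell type markers passed the test in DKO. Of 10 neuron markers, 4 were higher in DKO mRNA against WT and 2 lower in translational efficiency, beside 5.23% and 4.85% of all genes. Among them Slc17a7 (0.33 ± 0.07), Tubb3 (0.28 ± 0.07) and Tbr1 (0.28 ± 0.07) were higher in mRNA, and Tbr1 and Slc17a7 were lower in translational efficiency. The drops in translational efficiency, -0.51 ± 0.13 for Tbr1 and -0.63 ± 0.17 for Slc17a7, were larger than the rises in their mRNA. No neuron marker was called in footprints, which does not show unchanged footprints. The parts of mRNA and footprints in these drops were not tested. The summed mRNA of the list of neuron markers was 5342 to 6556 CPM in WT and 5880 to 7412 CPM in DKO, with none at 0. Of 7 endothelium markers 1, Slco1a4, was lower in DKO mRNA, at -0.63 ± 0.15. Their part in the Npas4 estimate was not tested.

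Genes other than the 10 were ranked by how closely they followed them, as the correlation of batch-centred log2 CPM with the mean of the 10 scaled genes. In mRNA, over 16 libraries, the 10 closest were Ppat (r = 0.95), Gadd45g (0.87), Gli1 (0.87), Gadd45b (0.86), Trib1 (0.85), Cdhr3 (0.85), Irf2bp2 (0.85), Aloxe3 (0.85), Tmco5 (0.84) and Tmem29 (0.84). In footprints, over 15 libraries, they were Arl4d (0.94), Csrnp1 (0.93), Htr7 (0.89), Col17a1 (0.85), Proser2 (0.84), Gm14446 (0.84), Sgk1 (0.84), Dnah1 (0.84), Prmt7 (0.84) and Esrrb (0.84). No gene is in both lists. Some of these genes had few counts, with mean levels of 1.86 CPM for Cdhr3 and 3.47 for Gli1 in mRNA. In footprints the mean was 0.63 CPM for Col17a1, 2.10 for Htr7 and 2.21 for Esrrb. In the other assay the r was 0.74 for Gadd45g, 0.78 for Trib1, 0.68 for Gadd45b, 0.83 for Arl4d and 0.69 for Csrnp1, all on the list of other immediate early genes. It was 0.12 for Ppat, -0.38 for Gli1 and -0.14 for Htr7. Over the named genes outside that list it ran from -0.52 for Tmco5 to 0.48 for Irf2bp2, with no value for Col17a1. Without the centring on batch, r was 0.84 for Ppat, 0.02 for Tmem29, 0.17 for Htr7 and -0.23 for Dnah1. Of the 38 other immediate early genes tested, 15 had an r over 0.5 in mRNA and 12 in footprints, against 4.11% and 3.77% of all genes. For the delayed genes it was 3 and 2 of 26, and for the glucocorticoid and stress genes 1 of 18 and 3 of 17. Of 7 striatum markers, 3 had an r over 0.5 in mRNA and 1 in footprints, with summed levels of 283 to 518 CPM and 106 to 620 CPM. Striatum markers also held Pde10a, with an r of -0.42 in mRNA. Of 6 choroid plexus markers, 1 had an r over 0.5 in mRNA, where the sum ran from 5.50 to 593 CPM over the libraries. In footprints, 2 of 10 neuron markers, 1 of 7 endothelium markers and 1 of 6 thalamus markers had an r over 0.5. Astrocyte, oligodendrocyte, microglia, hippocampus and blood markers had 0 in either assay. No striatum or choroid plexus marker was at 0 in all libraries, and the part of these markers in the shared pattern was not tested.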

How the data were processed

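Cortex of 4 genotypes was measured by polyA mRNA sequencing (16 libraries) and ribosome profiling (15 libraries). The deposited tables hold raw counts per gene symbol, per the file headers. The submitters' processing notes name mm10, cutadapt 2.0, Bowtie2, TopHat2 and RSEM; their roles, the annotation and the counter are not given in the sources used here. The authors' deposited comparison tables hold log2 fold changes, a test score, p-values and a mean signal (normalized counts), and cover FXS and DKO against WT.

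From the counts, edgeR 4.0.16 (R 4.3.3) fitted genotype and batch with TMM factors, filterByExpr and the robust quasi-likelihood F-test. The threshold was 0.05 on Benjamini-Hochberg adjusted p-values, taken over every gene tested. Translational efficiency was the footprint contrast minus the mRNA contrast in 1 model of all 31 libraries, and the 10 genes passed the filter in each assay. log2 CPM used a prior count of 1. The scripts were tested on simulated data. Alternatives were DESeq2 1.42.0, limma 3.58.1 voom, RLE factors, no filter, no batch term, fewer genotypes, and libraries or batches left out. Library totals, 12134624 to 34853751 counts, limit the precision of genes with few counts. Replicates of the same genotype and assay differed by more than sampling noise (a chi-square per degree of freedom of at least 4.69), so none was a copy of another. This does not show that they came from separate animals.

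The members, gene lists and tests were chosen with earlier results of these data known. The 10 members are always named. From the other lists, at most 4 called genes of smallest adjusted p per comparison are named, and the 10 genes most alike the members per assay. No sequence is printed for Arc and Egr1, and some called marker genes are not reported here.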

Additional observations from a re-analysis of the deposited data

Results flagged for a closer look

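Of 60 groups of 4 or 5 libraries, 6 held a library that stood apart from the rest of its group by Dixon's 95% criterion, which chance alone meets in about 1 in 20 groups. The libraries are shared by the 10 genes, so these are not independent. In footprints of WT, replicate 4 of batch 4 stood above the other 3 libraries for Egr2 (103.735 CPM against 22.6 to 28.3), Egr4 (226.183 against 74.6 to 93.2), Fos (381.126 against 130 to 168), Fosb (47.2009 against 13.1 to 17.6) and Nr4a1 (374.187 against 82.6 to 128). It was also the highest of all 15 footprint libraries for the remaining 5 genes. In footprints of FXS, replicate 2 of batch 2 stood below the other 4 libraries for Dusp1 (39.5354 CPM against 94.8 to 115).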

How the results depend on the processing

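Each of 180 estimates (10 genes, 18 tests) was recomputed under 22 to 41 alternatives, 5310 values in all, of which 5 gained a call. The main fits had called none of the estimates, so no call could be lost or turn its sign. In mRNA of DKO against WT, DESeq2, limma voom and the fit of those 2 genotypes alone each called 1 gene (Npas4), and fits leaving out 1 library called 0 to 1. In mRNA of FXS against WT, the fit of those 2 genotypes alone called 1 (Fosb). The tests between batches called 0 to 1 members in mRNA and 2 to 7 in footprints when 1 library was left out, and 1 (Egr4) in footprints without batch 1, an alternative chosen after seeing the data, as were all that left out a footprint batch. The replicate block here is the batch: the fit with no replicate block called 0 of the 10 genes in each of the 18 tests. Every other alternative also gave 0 for the comparisons between genotypes. The causes of these differences were not tested. The number of negative estimates was less stable: over the alternatives it was 7 to 10 in mRNA and 5 to 10 in footprints for FXS against WT, and 6 to 10 and 3 to 10 for DKO against WT. For S6K1 against WT it was 2 to 10 in mRNA and 3 to 9 in footprints, for DKO against FXS 1 to 7 and 1 to 9, and for DKO against S6K1 2 to 10 and 1 to 9. In translational efficiency it was 1 to 8 for FXS, 2 to 9 for S6K1 and 2 to 7 for DKO against WT, 0 to 9 for DKO against FXS and 1 to 8 for DKO against S6K1. Groups of 3 to 5 libraries, footprint batches that mix genotypes unevenly and the wide spread of these genes limit what could be called.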

Other observations

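Of 7 oligodendrocyte markers, 2 were lower in footprints of FXS against WT and 3 in footprints of DKO against WT, beside 0.165% and 0.366% of all genes. In translational efficiency 1 was lower in S6K1 and 5 in DKO against WT, beside 0.0293% and 4.85%. Among them Cnp, an enzyme of myelin, was lower in footprints of FXS against WT (-0.52 ± 0.07, SE, log2; adjusted p = 0.00785 in edgeR) and of DKO against WT (-0.64 ± 0.08; 0.00456). Opalin was lower in footprints of DKO against WT, at -0.88 ± 0.16 (0.0310). In translational efficiency of DKO against WT, Cnp (-0.71 ± 0.11), Opalin (-1.01 ± 0.23) and Mag (-1.12 ± 0.25) were lower, and Cnp was lower in S6K1 (-0.63 ± 0.11; 0.0352). Markers of astrocytes, microglia, blood, choroid plexus, hippocampus, striatum and thalamus gave 0 calls in the 18 tests in edgeR, the only tool counted for them. At an unadjusted p under 0.05 there were 0 to 4 of a list, beside 3.07% to 24.9% of all genes.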
